A study of Oryctolagus cuniculus with 10 samples.

Results

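A set of 146 rabbit genes was higher in fat pad stem cells grown on tissue culture plastic than on any of 4 decellularized matrices. The set was followed into pellets made from those cells and kept in chondrogenic medium. The cells were infrapatellar fat pad stem cells (IPFSCs) of New Zealand White (NZW) rabbits, that is, stem cells from the fat below the kneecap. The other substrate besides plastic was decellularized extracellular matrix (dECM), laid down in culture by 1 of 4 human cell types, adipose stem cells (ASC), dermal fibroblasts (DF), synovium-derived stem cells (SDSC) or urine stem cells (USC). The 10 mRNA libraries were 5 of expanded cells and 5 of pellets kept for 21 days in chondrogenic induction medium, with 1 library for each substrate at each stage. The sources used here do not give the rabbits' age, the number of animals or any pooling.

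Expansion on plastic is the usual way to multiply stromal stem cells, and it is known to flatten and spread them and, over passages, to lower their capacity to form cartilage. A dECM is the fibrous layer left behind when the cells that deposited it are removed. It offers collagens, fibronectin and proteoglycans as attachment sites on a softer surface. In pellet culture the cells are packed together without a substrate and given chondrogenic medium, so the cells no longer sit on plastic or on the original matrix sheet.

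The set was chosen from measured values. Of 29587 genes listed, 12244 had a mean of at least 1 RPKM (reads scaled to the gene's length and to all counted reads of the library) over the 10 libraries. On the log2(RPKM + 1) scale, 155 of these (1.27%) lay at least 1 higher in plastic cells than in the highest of the 4 dECM cell libraries. Of these, 6 were left out because they were higher by at least 2 in pellets than in cells in all 5 substrates, and 3 because they were lower by at least 2 in all 5. The remaining 146 genes are 1.19% of those tested. The gap alone was met by 182 genes, 27 of which failed the minimum mean. Of the 146 genes, 37 reached the minimum mean only through the plastic cell library, and the other 109 reached it without that library. A single plastic library set the choice, so the gap in cells is a description and was not tested. The deposited table lists genes by Ensembl identifier without names, 0 of the identifiers matched the gene table used here, and the genes are therefore described as a group, with 4 identifiers. The stem cell identity of the cultures and the formation of cartilage in the pellets were not checked against marker genes for the same reason.

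In plastic cells the genes had a median of 11.4 RPKM, with quartiles of 7.13 and 23.8 RPKM. Their medians were 2.24 RPKM in cells on ASC dECM, 3.20 on DF dECM, 2.50 on SDSC dECM and 1.50 on USC dECM. All 12244 tested genes had medians between 11.5 RPKM (SDSC dECM) and 12.0 RPKM (plastic) in the same 5 libraries. On plastic the 146 genes were thus at the level of a typical tested gene, and on each dECM they were well under it. Levels on plastic ran from 2.87 to 628 RPKM: 8 genes were over 100 RPKM, 77 were between 10 and 100 RPKM and 61 were under 10 RPKM. The genes together took 0.985% of the counted reads in plastic cells and from 0.203% (USC dECM) to 0.316% (SDSC dECM) in dECM cells. These are bulk libraries, in which fewer cells of a type and less RNA per cell cannot be told apart.

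**Figure D1:**
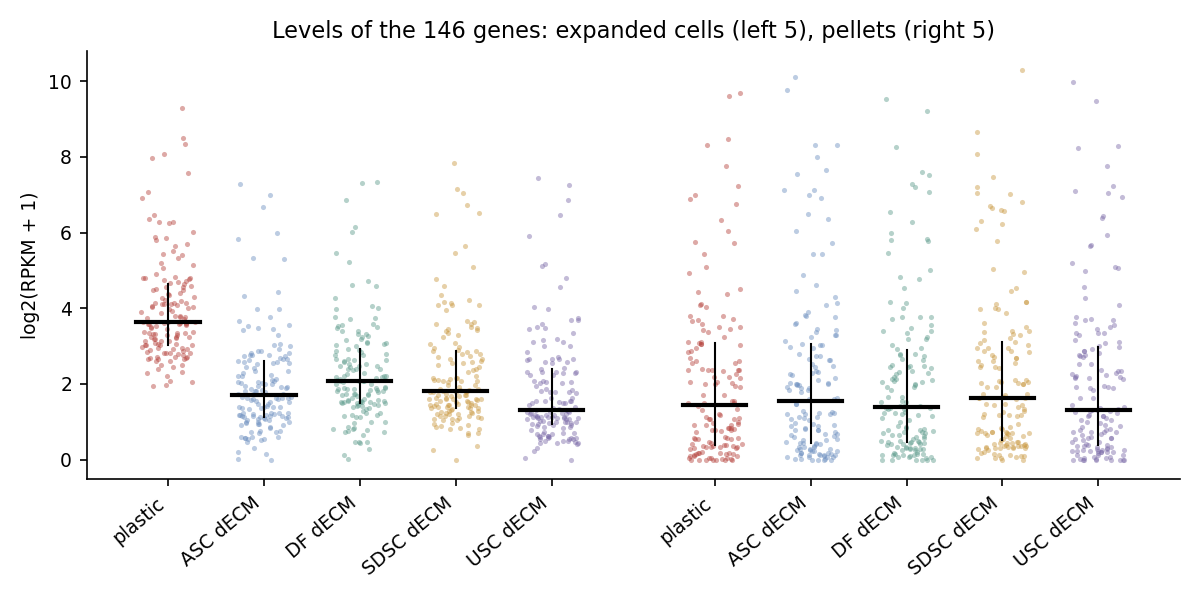
Each point is 1 of the 146 genes in 1 library, on the log2(RPKM + 1) scale (y axis); the x axis gives the substrate, with 5 expanded cell libraries at the left and 5 pellet libraries at the right. Thick bars are medians and thin lines span the quartiles. The median is 3.63 in plastic cells, from 1.32 to 2.07 in dECM cells and from 1.30 to 1.63 in the pellets.

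The gap between plastic and the highest dECM had a median of 1.30 on the log2 scale, with quartiles of 1.15 and 1.50 and a maximum of 2.80. It was at least 1.5 in 36 genes and at least 2 in 8. At the edge of the rule, the gene just inside had a gap of 1.01 (13.6 RPKM on plastic and 6.25 RPKM on the highest dECM), and the gene just outside had a gap of 0.998 (8.18 and 3.60 RPKM). Within 0.1 of the threshold stood 27 genes inside and 27 outside, so the edge cuts through a continuous range. No gene of the set was without reads in all 4 dECM cell libraries, and 2 had no reads in at least 1 of them. Those 2 are only 66 and 67 bases long, at 6.66 and 6.56 RPKM in plastic cells, so their values rest on few reads. The set as a whole was therefore present on dECM at a lower level, but some genes were close to absent there. In 1 gene the 4 dECM cell libraries stood at only 0.0146 to 0.289 RPKM, and in another at 0.102 to 0.364 RPKM.

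The 4 dECMs did not hold the genes at 1 level. DF dECM was the highest dECM library for 82 of the 146 genes (21.1% of all tested genes) and SDSC dECM for 44 (23.1%). USC dECM, highest for 12 (34.9%), was the lowest for 86 (20.7%). ASC dECM was highest for 8 (20.9%) and lowest for 33 (27.5%), while DF dECM was lowest for 15 (21.0%) and SDSC dECM for 12 (30.8%). The median difference from plastic was 1.43 on the log2 scale for DF dECM, 1.66 for SDSC dECM, 1.90 for ASC dECM and 2.11 for USC dECM. The rule used these libraries, and there is 1 library per matrix, so this order is given without a test. The range over the 4 dECM cell libraries had a median of 0.86 for the set and 0.39 for all tested genes.

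The comparison that the choice did not use is plastic against dECM in the pellets. There the excess on plastic was not seen. The genes had medians of 1.74 RPKM in the pellet after plastic, 1.91 after ASC dECM, 1.61 after DF dECM, 2.09 after SDSC dECM and 1.46 after USC dECM. The pellet after plastic thus lay inside the range of the pellets after dECM. These levels include the 37 genes that passed the minimum mean only through the plastic cells. For the other 109 the medians were 4.11 RPKM in the plastic pellet and 3.61 RPKM for the mean of the dECM pellets. The difference between plastic and the mean of the 4 dECMs, which had a median of 1.81 on the log2 scale in cells (lowest gene 1.11, highest 4.67), had a median of -0.027 in pellets, with quartiles of -0.19 and 0.15. Over all tested genes the pellet difference had a median of 0.10, with quartiles of -0.080 and 0.26. Counting error alone gave this pellet difference an SE of 0.097 at the median gene of the set.

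Gene by gene, the pellet after plastic was above every pellet after dECM in 30 of the 146 genes (20.5%), against 37.8% of all tested genes. It was below every one in 28 (19.2%), against 14.8%. In the pellet libraries the set had medians of 49.5 to 68.5 reads, against 368 to 514.5 for all tested genes. The shares thus compare genes counted at unlike depth. Median-of-ratios scaling moves the median of all tested genes by -0.16 on the log2 scale in the plastic pellet. In the dECM pellets it moves that median by -0.15 (DF) to -0.0052 (SDSC). With this scaling the counts were 22 above (25.7% of all tested genes) and 36 below (23.0%). The median plastic minus mean dECM difference in pellets was then -0.060 for the set and 0.0087 for all tested genes. A gap of at least 1 above every dECM pellet, the size asked for in cells, was found in 0 of the 146 genes (0.0490% of all tested genes), and a gap of at least 1 below every one in 1 gene (0.253%). The number above was 1 with a pseudocount of 0.1 RPKM (0.123% of all tested genes) and 1 without the ASC libraries (0.0735%). Shares this small leave the counts of 0 and 1 close to the background.

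In limma (moderated tests on log2(RPKM + 1), adjusted over all 12244 genes), 0 of the 146 genes were called between dECM and plastic in pellets, and 0 genes were called in all (0%). No adjusted p was lower than 0.639. Without the minimum mean, 104 of 21536 genes were called (0.483%), 0 of them in the set. Before adjustment, 6 of the 146 genes had a p under 0.05 (7.33% of all tested genes), 4 higher (2.14%) and 2 lower (5.19%) on dECM. limma-voom on recovered reads also called 0 of the 146 genes (0% of all tested genes). Plastic is 1 library per stage, assumed to vary like the dECM libraries, which are 4 different matrices and not replicates. A lack of calls does not show that the pellets are alike. An exact permutation test of 1 library against 4 cannot give a p under 0.2, so none is reported. In cells, the contrast that chose the genes, limma called 112 of the 146 lower on dECM (1.36% of all tested genes); the choice fixed that direction and nothing is read from the count, which was 0 without the ASC libraries, 0 without the USC libraries, 0 with the cell libraries fitted alone (each 0% of all tested genes) and 23 with a pseudocount of 0.1 RPKM (0.253%).

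**Figure D2:**
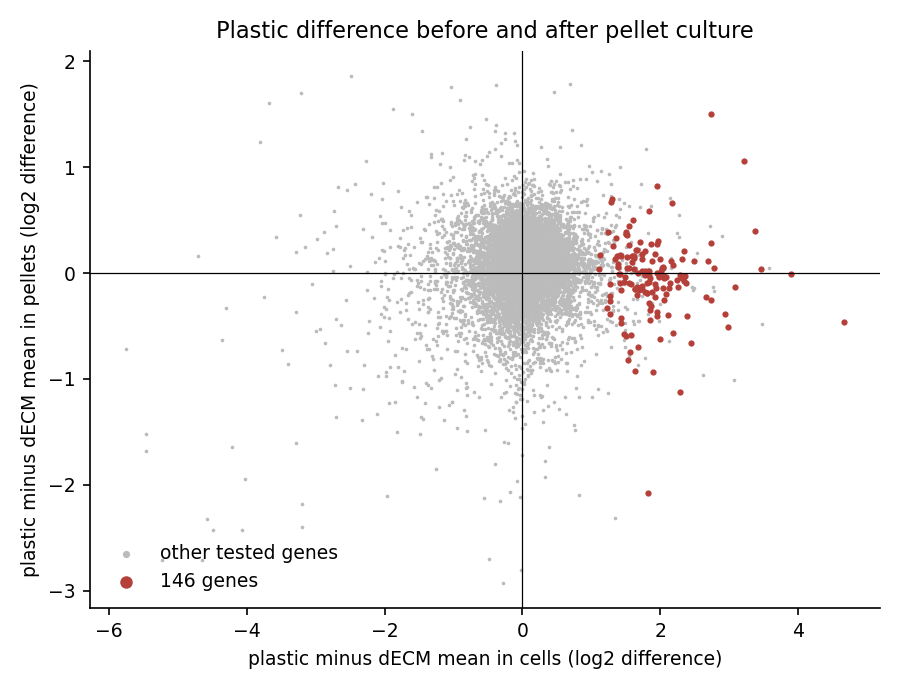
Each point is a tested gene, with the plastic minus mean dECM difference in cells on the x axis and the same difference in pellets on the y axis (both log2(RPKM + 1) differences). The 146 genes, in red, lie at 1.11 or more on the x axis by their choice and scatter around 0 on the y axis, with a median of -0.027.

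Within the set, genes with a larger excess in cells did not have a larger plastic difference in pellets. The rule cut off small differences in cells, which narrows this comparison. A relation over all tested genes cannot be read from it. Across the 146 genes the differences in cells and in pellets had a Pearson r of -0.0047 and a Spearman rho of -0.11, given as a description over genes, which share the same 10 libraries and are not independent. The 110 genes with a gap under 1.5 in cells had a median pellet difference of -0.019, and the 36 with a larger gap a median of -0.041. The 85 genes at 10 RPKM or more on plastic had a median of -0.028, and the 61 genes under it a median of -0.025. Among the 109 genes that reached the minimum mean without the plastic cell library, the median was -0.012. There 24 were above and 23 below every dECM pellet, against 37.8% and 14.8% of all tested genes. The 78 genes with at least 1 RPKM in all 5 pellets, with a median of 222.5 reads per pellet library, gave a median of -0.015. Of them 17 were above and 19 below, against the same shares of all tested genes. The pellet difference was therefore near 0 in each of these subsets.

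Each dECM pellet was also set against the plastic pellet by itself. The plastic pellet was higher by at least 1 in 0 of the 146 genes against ASC dECM (0.776% of all tested genes), 4 against DF dECM (0.849%), 3 against SDSC dECM (2.95%) and 2 against USC dECM (0.449%). It was lower by at least 1 in 7, 3, 10 and 2 genes in the same order (1.48%, 1.54%, 2.67% and 0.792%). The median plastic minus dECM difference in pellets was 0.0015 for ASC dECM, -0.0048 for DF dECM, -0.069 for SDSC dECM and 0.0057 for USC dECM. After USC dECM, whose cells had the lowest median level of the set, the pellet was within 1 of the plastic pellet in all but 4 genes. Those 4 are a larger share than among all tested genes (0.449% and 0.792% by direction), and are too few to read further.

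The pellet after SDSC dECM held the highest level of the 5 pellets in 56 of the 146 genes (38.4%), against 22.0% of all tested genes, and the lowest in 30, against 38.6%. With median-of-ratios scaling it was the highest in 63, against 31.6%. Plastic was highest in 30 (37.8%), DF dECM in 25 (21.2%), ASC dECM in 18 (10.2%) and USC dECM in 17 (8.76%). DF dECM was lowest in 30 (8.90%), ASC dECM in 26 (23.2%) and USC dECM in 23 (14.0%). These orders come from 1 library each and often from small differences. The SDSC dECM pellet lay at least 1 above every other pellet in 0 of the genes (0.359% of all tested genes) and at least 1 below every other in 1 (0.621%). Without the SDSC libraries the plastic pellet was above every remaining dECM pellet in 38 genes and below in 33 (43.3% and 18.5% of all tested genes), and the median pellet difference was -0.0075.

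**Figure D3:**
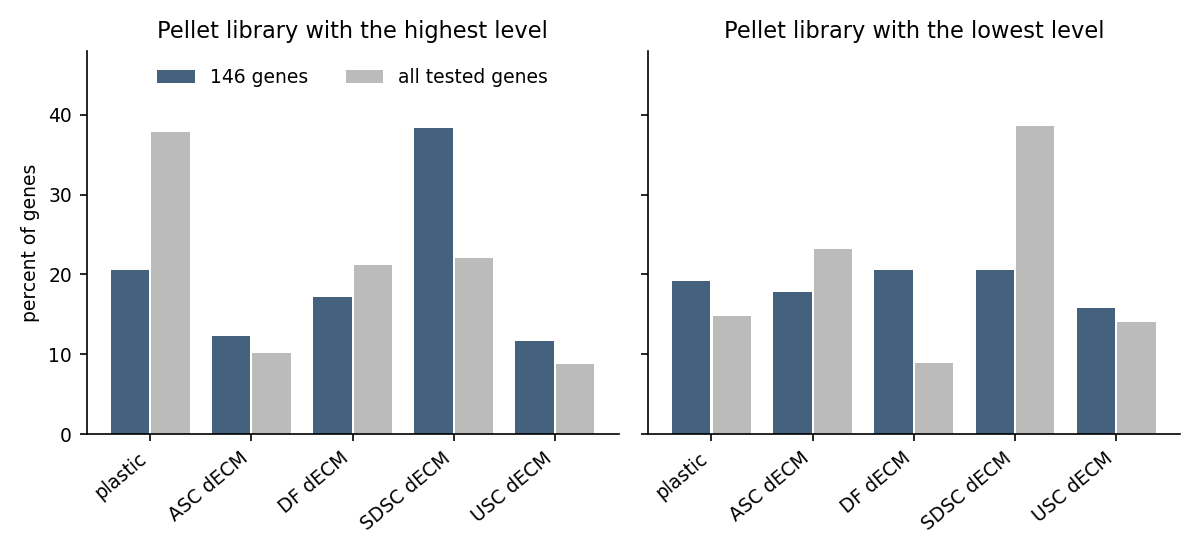
Bars give the percent of genes (y axis) for which the pellet of each substrate (x axis) was the highest (left panel) or the lowest (right panel) of the 5 pellet libraries, for the 146 genes in blue and for all 12244 tested genes in grey; ties count for no library. SDSC dECM is the highest pellet for 38.4% of the 146 genes and 22.0% of all tested genes.

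Pellets were also compared with cells, as a description. In limma with stage and substrate, 69 of the 146 genes were lower in pellets than in cells (18.6% of all tested genes) and 29 were higher (37.8%), each at an adjusted p under 0.05. With median-of-ratios scaling these counts were 71 (25.9% of all tested genes) and 25 (27.4%), so the background moved more than the counts of the set. Plastic cells were selected as high and take part in this contrast, and genes with the largest changes shared by all substrates were left out by the rule, so nothing is read from the counts. On plastic the pellet minus cell difference had a median of -2.19 on the log2 scale. It was -0.29 on ASC dECM, -0.65 on DF dECM, -0.38 on SDSC dECM and -0.13 on USC dECM, while all tested genes had medians between 0.12 and 0.24. A difference of -1 or lower was found in 108 of the 146 genes on plastic (7.38% of all tested genes), and in 37 on ASC dECM (8.13%), 62 on DF dECM (7.51%), 40 on SDSC dECM (5.56%) and 22 on USC dECM (8.71%).

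The libraries of the set lay closer together in pellets than in cells. The range over the 5 libraries had a median of 2.20 on the log2 scale in cells, which the rule itself makes wide, and 0.51 in pellets. For all tested genes the medians were 0.49 and 0.47. On this scale the spread of the set in pellets was thus close to that of a typical tested gene. The set stood lower in the pellets, at medians of 1.46 to 2.09 RPKM against 13.0 to 15.0 RPKM. At such levels the 1 added before the log narrows differences, so the spreads are not fully comparable. Over the 4 dECM libraries alone the median range of the set was 0.86 in cells and 0.44 in pellets, against 0.39 in both for all tested genes.

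The level at which the pellets met differed between genes. In 59 of the 146 genes all 5 pellets lay below every cell library (13.6% of all tested genes), in 16 all 5 lay above every cell library, plastic included (27.8%), and in 33 all 5 lay within the range of the cell libraries (9.88%). In the other 38 the pellets straddled an end of that range (48.7%). The rule enters these counts, since the plastic cells set the upper end of the range and 37 genes that passed the minimum mean only through them had to be low elsewhere. Of those 37, 27 had all pellets below every cell library, 4 within the range and 0 above. Of the 109 that passed without plastic cells, the numbers were 32 below, 29 within and 16 above, and their medians were 3.40 RPKM in dECM cells and 3.63 RPKM in pellets. The mean of the 5 pellets was nearer to the dECM cell mean than to the plastic cells in 113 genes (46.7% of all tested genes), and it was above the plastic cells in 21 (60.5%). The distance to plastic cells was made large by the rule, and nothing is read from these counts. The mean of the dECM pellets differed from that of the dECM cells by a median of -0.39, with quartiles of -1.06 and 0.71, so the meeting level lay above the dECM cells in some genes and below them in others.

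**Figure D4:**
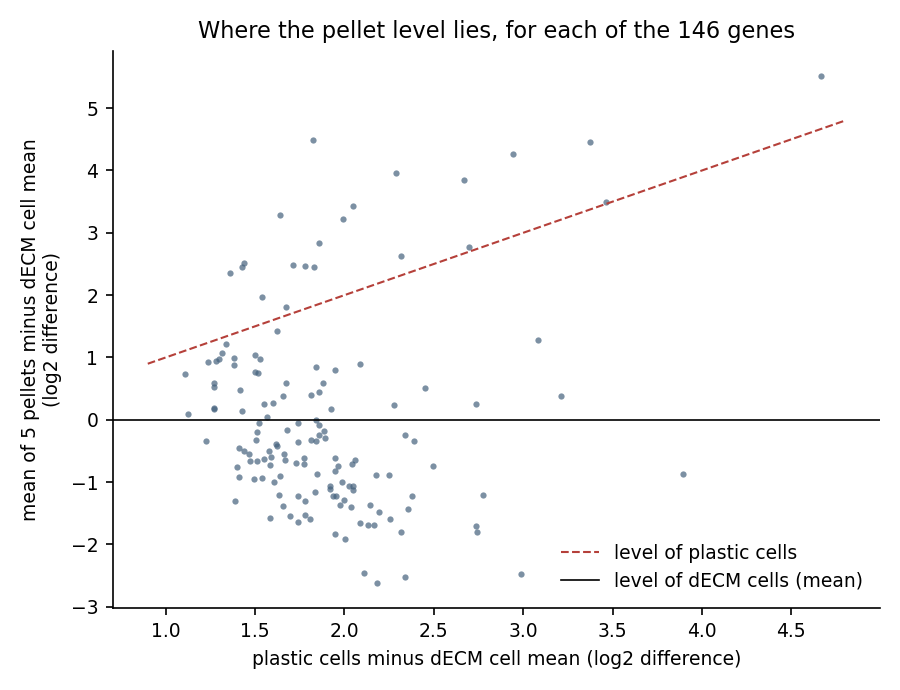
Each point is 1 of the 146 genes, with the plastic cells minus dECM cell mean on the x axis and the mean of the 5 pellets minus the dECM cell mean on the y axis (log2(RPKM + 1) differences). Points under the solid line, 88 genes, have pellets below the dECM cell mean (37.0% of all tested genes). From that line to the dashed line of plastic cells lie 37 genes (10.02%), and 21 lie above the dashed line (60.5%). The shares of all tested genes overlap where plastic cells lie below the dECM cell mean. The rule made plastic cells high in the set, so nothing is read from these counts.

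The 59 genes with all pellets below every cell library had a median of 11.0 RPKM in plastic cells, 2.06 RPKM in dECM cells and 0.270 RPKM in pellets. The pellets after plastic (0.274 RPKM) and after dECM (0.269 RPKM) had close medians, but these values rest on a median of 9 reads per pellet library. Differences between pellets were hardly detectable at this depth. In the whole set, 51 genes were under 1 RPKM in all 5 pellets, 13 had no reads in at least 1 pellet library, and 0 had none in all 5.

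The 33 genes with pellets within the cell range had medians of 11.3 RPKM in plastic cells, 2.27 RPKM in dECM cells, 3.81 RPKM in the pellet after plastic and 3.77 RPKM in the pellets after dECM. The 16 genes with pellets above every cell library had medians of 16.7 RPKM in plastic cells and 3.10 RPKM in dECM cells. In pellets they stood at 31.4 RPKM after plastic and 65.4 RPKM after dECM. Gene by gene, the plastic minus mean dECM difference in pellets had a median of -0.24 in these 16, against 0.10 for all tested genes. The plastic pellet was below every dECM pellet in 6 (14.8% of all tested genes) and above every one in 4 (37.8%). The 6 genes left out for a higher level in all pellets had medians of 20.9 RPKM in plastic cells, 3.89 RPKM in dECM cells, 138 RPKM in the plastic pellet and 166 RPKM in the dECM pellets. The 3 left out for a lower level in all pellets had medians of 59.4 RPKM in plastic cells and 8.80 RPKM in dECM cells. With 16, 6 and 3 genes these medians are thinly based.

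Of the 146 genes, 4 are given by identifier, the pair with the largest gap of plastic over every dECM pellet and the pair with the largest gap under them. They were picked on the pellet values, so these gaps are a description. Their names, functions and positions were not looked up, for want of a table that pairs them.

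ENSOCUG00000011487 had the largest excess in the plastic pellet. It was at 81.2 RPKM (2663 reads) in plastic cells and at 11.7 RPKM on ASC dECM, 10.3 on DF dECM, 9.23 on SDSC dECM and 14.8 on USC dECM. In pellets it was at 7.69 RPKM after plastic (244 reads), 3.44 after ASC dECM, 1.06 after DF dECM, 1.62 after SDSC dECM and 2.72 after USC dECM. Plastic was the highest library at both stages, without overlap, while all 5 pellets were below all 5 cell libraries. The dECM minus plastic difference in pellets was -1.50 ± 0.38 (log2, SE; limma, adjusted p = 0.639), the largest excess of plastic among the 146 genes and the only one above the smallest difference of the set in cells.

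ENSOCUG00000017002 kept a narrower excess. In cells it was at 8.13 RPKM on plastic, 2.85 on ASC dECM, 2.76 on DF dECM, 3.42 on SDSC dECM and 1.94 on USC dECM. In pellets it was at 9.79 RPKM after plastic (543 reads) and at 5.62, 5.68, 5.79 and 5.51 RPKM after ASC, DF, SDSC and USC dECM. The 4 dECM pellets lay within 0.274 RPKM of each other, with a mean of 5.65 ± 0.114 RPKM (SD, n = 4), and plastic stood clear of them. The dECM minus plastic difference was -0.70 ± 0.21 (log2, SE; limma, adjusted p = 0.639).

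ENSOCUG00000000616 had the largest gap in the opposite direction. In cells it was at 7.22 RPKM on plastic (39 reads), 0.480 on ASC dECM (2 reads), 1.93 on DF dECM, 2.21 on SDSC dECM and 1.09 on USC dECM. In pellets it was at 15.5 RPKM after plastic (81 reads), 120 after ASC dECM (535 reads), 42.7 after DF dECM, 132 after SDSC dECM and 32.2 after USC dECM. The highest of the cell libraries thus became the lowest of the pellets, although each pellet was above every cell library. The dECM minus plastic difference in pellets was 2.07 ± 0.72 (log2, SE; limma, adjusted p = 0.639), and the dECM pellets differed widely among themselves (81.7 ± 51.5 RPKM, SD, n = 4).

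ENSOCUG00000033803 went from the highest library on plastic to the lowest, with a small gap in pellets. In cells it was at 26.8 RPKM on plastic (117 reads), 6.54 on ASC dECM, 9.54 on DF dECM, 10.3 on SDSC dECM and 7.68 on USC dECM. In pellets it was at 5.45 RPKM after plastic, 9.99 after ASC dECM, 10.7 after DF dECM, 9.34 after SDSC dECM and 9.13 after USC dECM. The plastic pellet had 23 reads, for which counting alone gives a 95% Poisson interval of 14.6 to 34.5, and the dECM pellets had 36 to 50. The dECM minus plastic difference was 0.74 ± 0.22 (log2, SE; limma, adjusted p = 0.639).

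**Figure D5:**
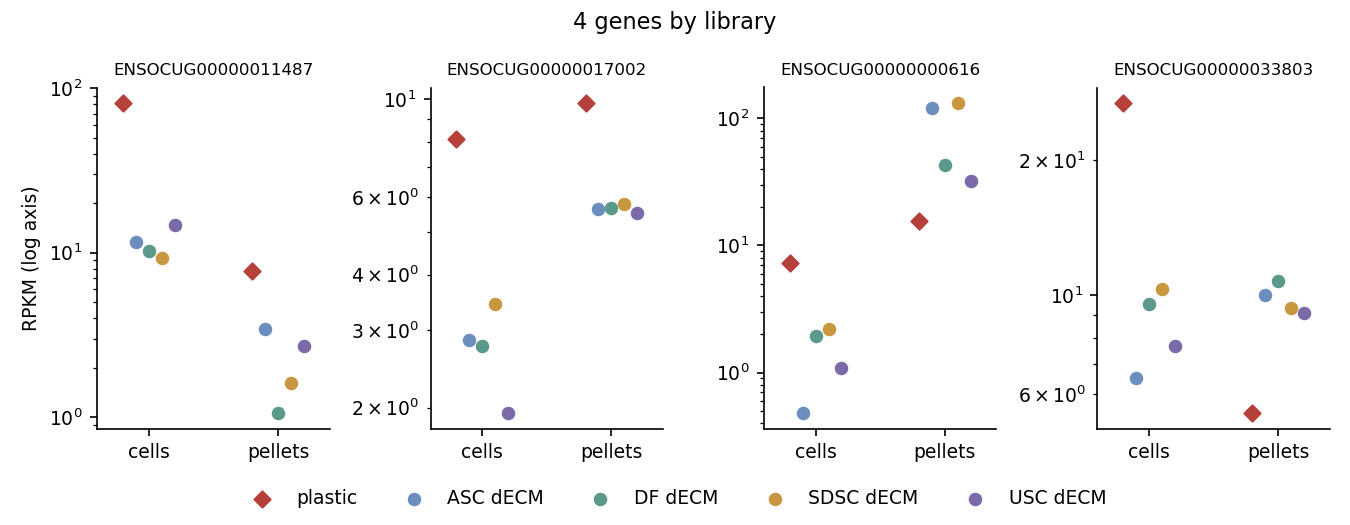
RPKM on a log axis (y) for 4 genes in the 5 cell and 5 pellet libraries (x); diamonds are plastic and circles are the 4 dECMs, with 1 library per point and separate y ranges. In the left pair plastic is the highest library at both stages, and in the right pair it is the highest in cells and the lowest in pellets.

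Gene length, which the rule did not use directly, was read from the values, since RPKM and recovered reads together give it. The 146 genes had a median length of 1887 bases, with quartiles of 1087 and 3181, and all tested genes a median of 1802 bases, with quartiles of 969 and 3016. The set was thus of ordinary length. Counted reads per library ran from 14019466 to 19826154, and a gene of the set had a median of 462 reads in plastic cells, between 58 and 118 in the dECM cell libraries and between 49.5 and 68.5 in the pellets.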

How the data were processed

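Total RNA (Trizol, then RNeasy columns) went into KAPA mRNA HyperPrep libraries, per the labels' protocols. Subread and featureCounts were used with build OryCun2.0, per the submitters' processing notes. The sources used here do not give versions, annotation or strand setting. The authors deposited log2 values, which equal log2(RPKM + 1) with 0.0001 added. Whole reads were recovered for all 21536 genes above 0 (tolerance 0.02), and 99.9% of 1070 short genes then had a length within 0.1 of a whole base. Reads sharing a common factor are understated.

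Samples were grouped by title, with stage and substrate. Nothing says that libraries came from separate cultures or animals, so p-values rest only on the spread between these libraries. For dECM against plastic that spread, and the SEs from it, come from 4 different matrices with 1 library each per stage. They include differences between matrices and are not a measure of replicates. Tests used limma 3.58.1 in R 4.3.3, two-sided, with a variance prior that follows expression, Benjamini-Hochberg adjustment over 12244 genes and a threshold of 0.05. dECM was compared with plastic by stage and class means over 10 libraries, without a substrate term. Counts and medians were computed in Python 3.11.15 (pandas 2.3.3, numpy 2.4.6, scipy 1.17.1) and drawn with matplotlib 3.10.9. The fit was tested on simulated data.

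The set of genes, the rule and the comparisons were chosen with earlier results of these data known. Of the reference's 38822 genes (assembly mOryCun1.1), 0 carried a matching identifier, so gene lists and sequences were not used. Identifiers were to be given for the pair of genes with the largest pellet gap in each direction. Alternatives were other pseudocounts, scaling, filters, gaps, variance priors, limma-voom and leaving out a substrate.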

Additional observations from a re-analysis of the deposited data

Results flagged for a closer look

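Among 13 sets of 4 or 5 libraries, Dixon's criterion picked out 2 in which 1 library stood away from the rest; chance alone picks about 1 set in 20. The pellet after plastic stood far above the other pellets for ENSOCUG00000017002 (3.43 on the log2(RPKM + 1) scale, against a lowest pellet of 2.70). It stood far below them for ENSOCUG00000033803 (2.69, against a highest pellet of 3.55). Both genes had been picked for a large gap between the plastic pellet and the others.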

How the results depend on the processing

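Pellets and cells were paired by substrate, as a term in the model. Without that pairing (no replicate block) 28 genes were higher (39.2% of all tested genes) and 69 lower (19.6%) in pellets. The set is largest without the SDSC libraries, at 279 genes. It falls to 54 genes with a pseudocount of 5 RPKM (50 of them among the 146), to 59 with a minimum mean of 5 RPKM and to 8 with a gap of at least 2. Leaving out a substrate otherwise gave 152 to 188 genes.

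With the 59 genes, 13 were above (37.8% of all tested genes) and 18 below every dECM pellet (14.8%), with a median pellet difference of -0.10. With the 8 genes these were 1, 0 and 0.015, against the same shares. With a pseudocount of 0.1 RPKM the median was -0.089. That pseudocount put 1 gene at least 1 above every dECM pellet (0.123% of all tested genes). Leaving out a substrate gave 0 to 1 such genes (0.0653% to 0.180%). It gave 33 to 38 above every remaining dECM pellet (40.6% to 45.9% of all tested genes) and 33 to 40 below (16.8% to 18.9%). The medians were -0.032 to -0.0075. In cells, limma called 23 of the 146 genes lower on dECM with a pseudocount of 0.1 RPKM (0.253% of all tested genes), 64 with no minimum mean (1.30%), 0 with the stage fitted alone (0%) and 0 to 138 on leaving out a substrate (0% to 5.69%). In pellets, 0 of the 146 were called under each of the 10 alternatives; over all genes 104 of 21536 (0.483%) were called with no minimum mean and 0 under the other 9. The cause was not tested. The median-of-ratios counts of pellet positions and of the SDSC dECM pellet were added after the data were seen. Depth limits the 51 genes under 1 RPKM in pellets.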
